A study of Trichoderma reesei QM6a with 4 samples.

Results

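In Trichoderma reesei, 9 loci that lie near one another in the reference order gave signal on wild-type arrays. On arrays of the mutant AT01 that signal was lower or missing at most of their probes. The loci were ASTRICH120872, ASTRICH105242, ASTRICH120877, ASTRICH76215, ASTRICH76218, ASTRICH3049, ASTRICH76220, ASTRICH120884 and ASTRICH3055, 9 of 9127 genes on the array, with 45 of its 43565 probes. Each name carries the number of a TRIREDRAFT locus tag of the reference. They were chosen by the loss of processed signal in AT01 against the wild type, as the neighbouring loci that lost most, so their difference between the strains is given as a description and carries no test. Expression had been measured from total RNA on 4 Agilent arrays with 1 dye, of which 2 held the wild type and 2 held AT01, a strain that the submitters describe as a mutant accumulating much copper. Both strains were cultured in YPD, the rich yeast extract medium, with 1 mM CuSO4, held at 25 °C over 5 days. All 4 cultures thus held copper, and no culture without it was analysed here. The labels give neither the mutation of AT01 nor how the strain was made, and name no separate cultures behind the paired arrays, so a p-value here reflects array-to-array spread that may be technical. Mycelium was sampled whole, so fewer hyphae carrying a transcript and less transcript per hypha cannot be told apart.

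Trichoderma reesei is a soil fungus known for its secreted cellulases and hemicellulases. In filamentous fungi the genes for a secondary metabolite often lie side by side, with a large core enzyme such as a polyketide synthase (PKS), a nonribosomal peptide synthetase (NRPS) or a hybrid of both, and beside it genes for modifying enzymes, transporters and regulators that are often expressed together. Genes for enzymes that break down plant cell walls also lie near such clusters in this genome. The stretch held 3 loci whose kind is known from other work, not from these files, that are not among the 9: ASTRICH58285, a PKS-NRPS hybrid, ASTRICH76210, an arabinofuranosidase, which trims hemicellulose side chains, and ASTRICH76227 or cel3e, a beta-glucosidase. For the 9 loci themselves the sources used here give no symbol and no function, so whether they form a biosynthetic cluster cannot be told from them.

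The mutant arrays were the brighter ones over all probes, while the 9 loci lost signal on them. The 75th percentile of the processed signal, the scanner software's background-subtracted brightness, was 20.9 and 22.2 in the wild type against 41.6 and 40.0 in the mutant. After removal of outlying spots, 20786 and 19921 probes lay well above background in the wild type and 26454 and 26125 in the mutant, by the flag of the scanner software. Values called scaled below are log2 signals minus the array's 75th percentile. Since the mutant's percentile was higher, scaling lowers every probe of AT01 relative to the wild type, and a dim probe near the lowest signal of its array, 1.42 to 1.57 on the 4 arrays, comes out lower in AT01 after scaling alone. Of 8005 genes tested, limma called 2612 lower (32.6%) and 1167 higher (14.6%) in AT01, with 0.05 as the limit of the Benjamini-Hochberg adjusted p. The higher genes made up 30.9% of the calls, but 15.5% with normexp background correction, 42.3% with the percentile over detected probes, 47.6% with 1 lower limit shared by all arrays, 50.2% in the authors' value table, 58.0% after quantile normalization and 59.2% after cyclic loess. The median difference over all genes tested was -0.23, and -0.02 with quantile normalization.

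Detection does not depend on that scaling, and is given here as a description of the 9 loci. Of the 45 probes, 27 and 25 lay well above background in the wild type, compared with 5 and 4 in AT01. Of the 24 probes detected on both wild-type arrays, 19 (79.2%) were detected on neither mutant array, against 0.392% of all such probes on the array (74 of 18878). This count rests on the contrast by which the loci were picked, so nothing is read from the difference between the shares. The 19 probes were 25.7% of the 74, and each of the 9 loci held at least 1 of them. The other 55 lay in 47 loci elsewhere. Of the 19 probes, 11 were within 5% of the lowest signal of the array on both mutant arrays, and of the 55 elsewhere 0 were.

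**Figure D1:**
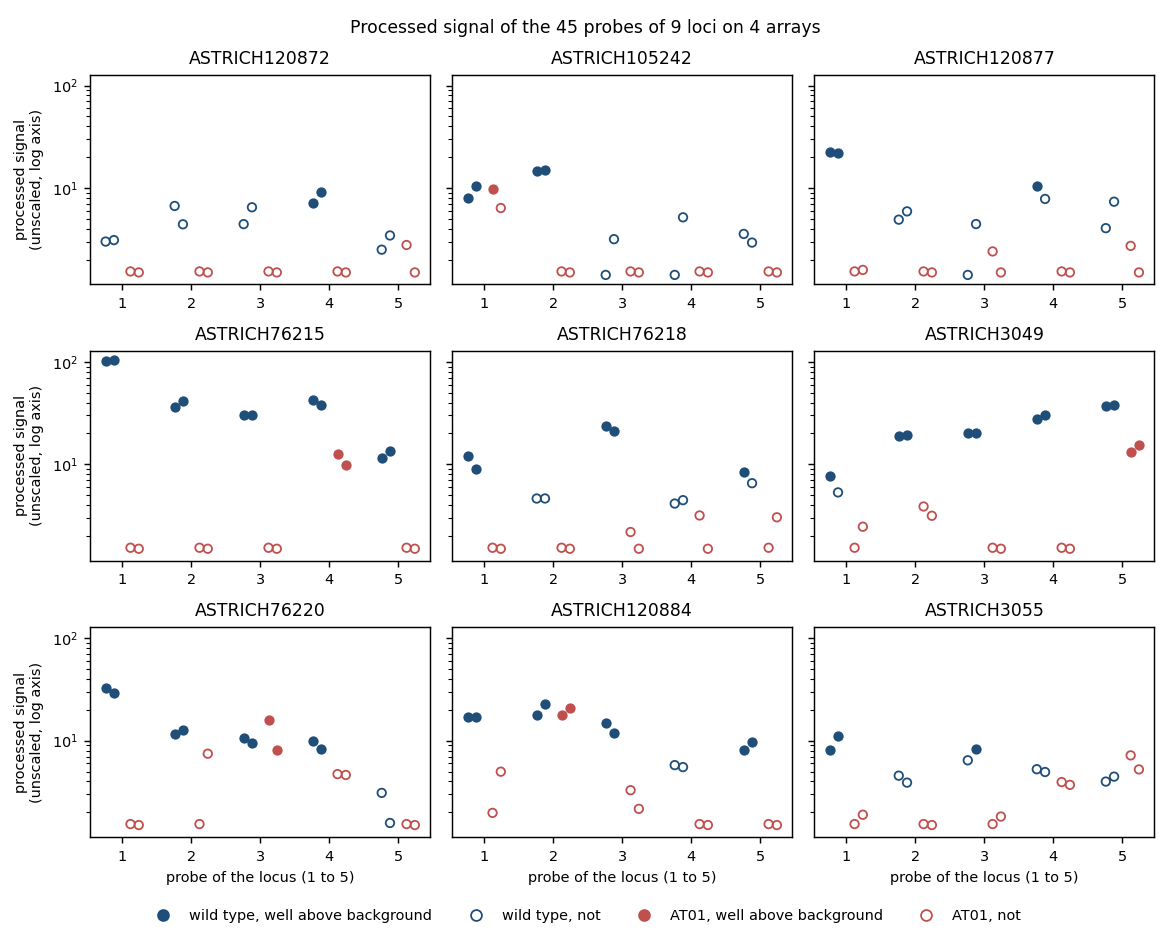
Processed signal, unscaled and on a log axis, of each of the 5 probes of the 9 loci on the 2 wild-type arrays (blue) and the 2 AT01 arrays (red). Filled points are well above background and open points are not; 4 probes, 1 each in ASTRICH76215, ASTRICH3049, ASTRICH76220 and ASTRICH120884, are filled in red on both AT01 arrays.

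ASTRICH76215 was the 1 locus with all 5 probes detected (well above background) in both wild-type samples. Its probe 1 read 102 and 103 in the wild type and 1.54 and 1.502 in AT01, the latter being the lowest signal those arrays give. Both mutant arrays lay far below both wild-type arrays. A probe detected on neither mutant array has only a bound, which sets the mean of the scaled wild-type values against the lowest scaled signal well above background on each mutant array or the probe's own value if higher. By that bound probe 1 was at least 25.7-fold lower in AT01. The scaling enters every such bound: with unscaled signals, chosen after seeing the data, the bound of this probe was 13.6-fold and the bounds of all 19 lost probes ran from 1.07-fold to 13.6-fold, in place of 2.02-fold to 25.7-fold. Probe 2 read 36.0 and 41.0 against 1.54 and 1.502, at least 9.63-fold lower, and probe 3 read 30.5 and 30.4 against the same values, at least 7.62-fold lower. Probe 5 read 11.6 and 13.4 in the wild type and was at least 3.12-fold lower. Probe 4 alone kept signal in AT01, with 12.5 and 9.96 against 42.3 and 37.9, a scaled difference of -2.77 on the log2 scale. As the mean of its probes, ASTRICH76215 read 0.76 and 0.72 scaled in the wild type and -4.16 and -4.19 in AT01. The difference of -4.91 is set partly by the lower limit of dim probes. It came to -4.17 when all arrays shared a lower limit and to -3.15 in the authors' value table.

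ASTRICH3049, ASTRICH120884 and ASTRICH76220 each had 4 of their 5 probes detected on both wild-type arrays, and each kept 1 of them in AT01. In ASTRICH3049 probe 4 read 27.4 and 30.6 in the wild type and 1.54 and 1.502 in AT01, at least 7.24-fold lower, and probe 3 read 20.2 and 20.2 against the same lowest values, at least 5.05-fold lower. Its probe 2, with 19.1 and 19.5 against 3.88 and 3.15, was at least 4.83-fold lower. Probe 5 of ASTRICH3049 was dimmer in AT01 but still detected, at 13.3 and 15.4 against 37.3 and 38.3. Averaged over its probes the locus read -0.08 and -0.23 scaled in the wild type against -3.87 and -3.71, a difference of -3.64.

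In ASTRICH120884 probes 1, 3 and 5 lost detection, by at least 4.27-fold, 3.31-fold and 2.21-fold. Probe 2 did not follow them and read 17.9 and 22.6 in the wild type and 17.7 and 20.9 in AT01, so that the unscaled values of the strains overlapped. The mean of the locus was -0.85 and -0.90 scaled against -3.76 and -3.53. In ASTRICH76220 probe 1 read 32.3 and 29.1 against 1.54 and 1.502, at least 7.68-fold lower, and probes 2 and 4 were at least 3.05-fold and 2.27-fold lower, or 1.61-fold and 1.2-fold with unscaled signals. Probe 2 of ASTRICH76220 differed between the mutant arrays, at 1.54 and 7.46. Its probe 3 overlapped between the strains before scaling, with 10.51 and 9.59 in the wild type and 15.8 and 8.06 in AT01. The locus mean was -1.01 and -1.38 scaled against -3.76 and -3.46.

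The other 5 loci rested on 1 or 2 probes detected on both wild-type arrays. ASTRICH76218 had 2, at least 5.59-fold and 2.60-fold lower in AT01, the brighter reading 23.5 and 21.2 against 2.19 and 1.502. ASTRICH105242 had 2, of which probe 2, at 14.7 and 15.0 against 1.54 and 1.502, was at least 3.72-fold lower. Probe 1 of ASTRICH105242, at 7.94 and 10.4 against 9.71 and 6.38, stayed detected on 1 of the 2 mutant arrays. ASTRICH120877 had 1 such probe, at 22.4 and 21.8 against 1.54 and 1.59, at least 5.53-fold lower. The remaining 2 loci were close to background in the wild type too. ASTRICH3055 read 8.17 and 11.1 against 1.54 and 1.89 at its 1 such probe, at least 2.38-fold lower, and ASTRICH120872 read 7.19 and 9.10 against 1.54 and 1.502, at least 2.02-fold lower.

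By locus, 4 of the 9 (ASTRICH120872, ASTRICH120877, ASTRICH76218 and ASTRICH3055) had no probe well above background on either mutant array. The other 5 kept 1 probe on at least 1 mutant array, so signal at those loci was not lost in full, and whether the kept probes read these loci or other transcripts was not tested. Spots of the 45 probes lay between rows 4 and 524 of 532 and columns 5 and 85 of 85, and so were spread over the array. Their local background had a median of 38.0 and 37.0 in the wild type and 37.5 and 38.0 in AT01, against 37.0, 37.0, 37.5 and 38.0 over all probes. The medians were equal on each array except the first wild-type array, where that of the 45 probes was higher.

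All 9 loci had both mutant arrays below both wild-type arrays after scaling, a pattern held by 51.8% of the genes tested. The median difference of the 9 was -2.77 on the scaled log2 scale, against -0.23 over all genes tested. The smallest differences among them were -2.10 for ASTRICH105242 and -2.11 for ASTRICH3055. The next loci outside the 9 in or beside the stretch were ASTRICH120889 at -1.38 and ASTRICH105263 at -1.36, the latter dim in both strains and not tested. Of single probes, 45 of 45 were lower without overlap after scaling, against 45.3% of all probes. With unscaled signals, where the mutant arrays keep their greater brightness, it was 37 of 45, against 4.0% of all probes. These shares describe the choice of the loci and support nothing beyond it.

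**Figure D2:**
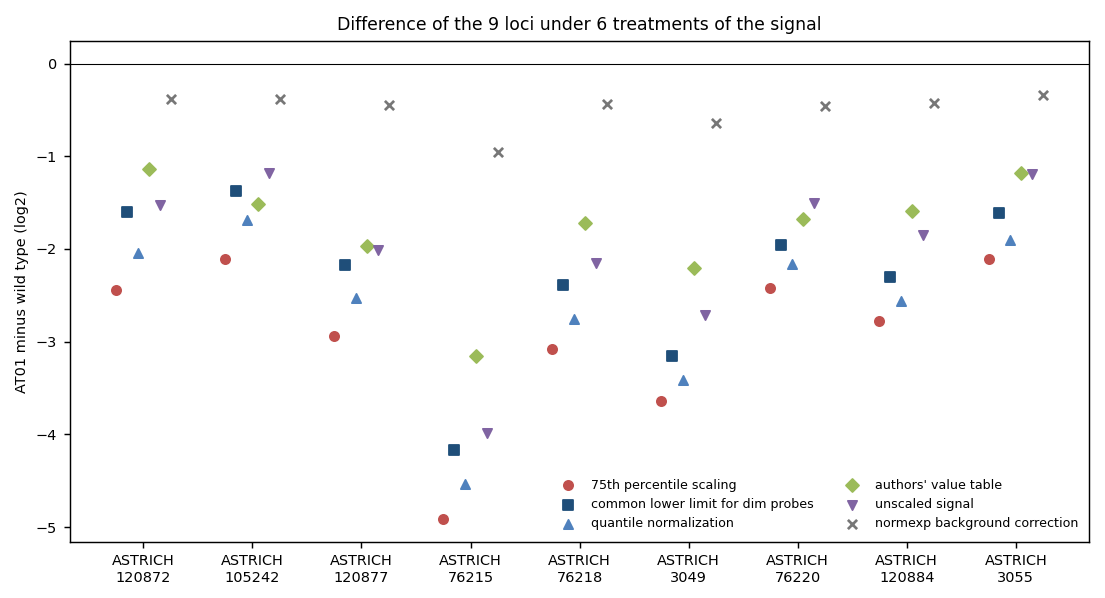
Difference between AT01 and the wild type on the log2 scale for each of the 9 loci, as the mean over probes, under 6 treatments of the signal. All points lie below 0; normexp background correction, which adds an offset of 50 to signals that mostly lie below it, gives the smallest differences, with a median of -0.43 against -2.77 with 75th percentile scaling.

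The size of the difference depended on how dim signals were treated. Its direction, by which the loci were chosen, did not change in the settings run. The median of the 9 was -2.17 under the common lower limit, -2.53 after quantile normalization, -1.85 with unscaled signals and -1.67 in the authors' value table, where 28 of the 45 probes were present. In that table the mutant arrays read 2.32 and 2.32 for probe 1 of ASTRICH76215, the lowest value of each column, against 7.14 and 7.01 in the wild type. With normexp correction the median was -0.43, and ASTRICH76215 itself lay at -0.95. The brightest probe of a locus was that with the highest mean scaled value over all arrays, which favours probes that kept signal in AT01. For ASTRICH76215 it was probe 4, not probe 1. For ASTRICH3055 it was probe 5, detected on no array, at 3.99 and 4.46 in the wild type and 7.19 and 5.24 in AT01. With each locus represented by its brightest probe, the differences spread more widely. They shrank to -0.38 for ASTRICH3055, -0.75 for ASTRICH76220, -0.98 for ASTRICH120884, -1.13 for ASTRICH105242, -2.33 for ASTRICH3049 and -2.77 for ASTRICH76215. They grew to -3.33 for ASTRICH120872, -4.54 for ASTRICH76218 and -4.74 for ASTRICH120877.

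The 9 loci did not form an unbroken row. Counted from ASTRICH120872 as the first, they held positions 1, 15 to 17, 24, 25, 29, 31 and 35 of a stretch of 35 loci, with 26 loci between them. ASTRICH105242, ASTRICH120877 and ASTRICH76215 were direct neighbours, as were ASTRICH76218 and ASTRICH3049. The reference lists 7 loci before the first, where positions start again, and the next locus past the last with a probe lost in AT01 came 19 loci on.

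**Figure D3:**
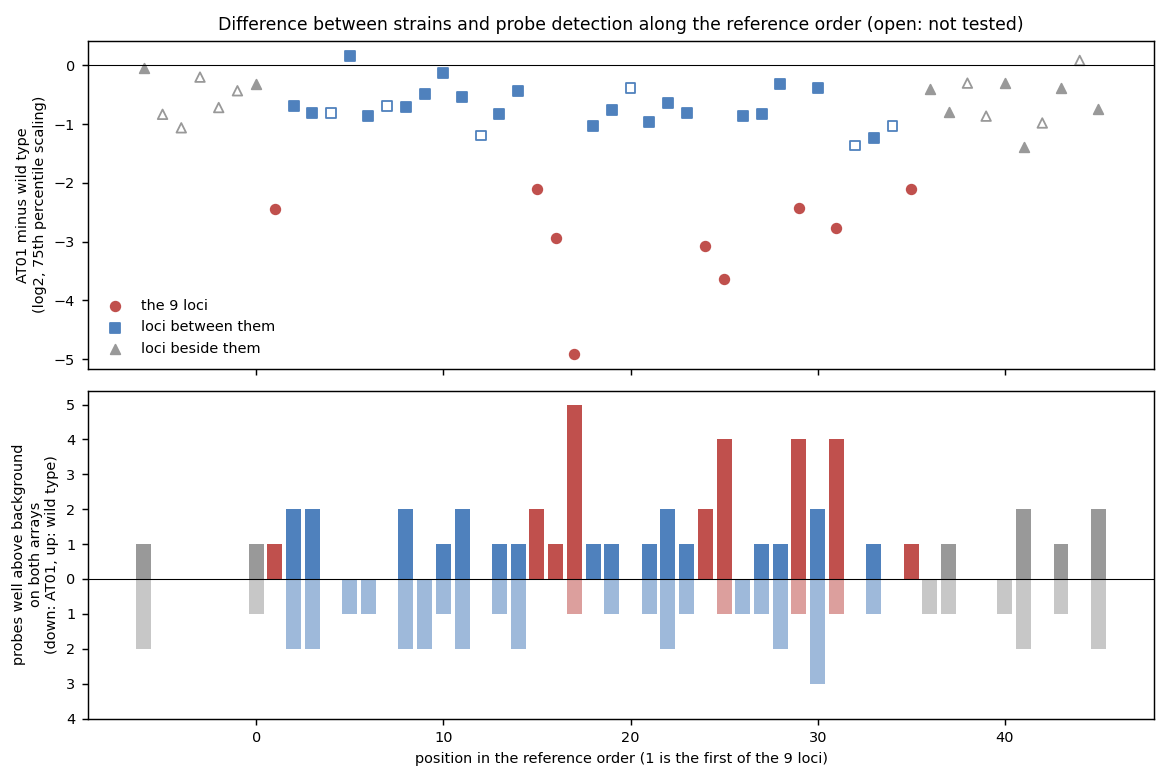
Along the reference order, the upper panel shows the difference between AT01 and the wild type (log2, 75th percentile scaling) for the 9 loci (red), the 26 loci between them (blue) and 17 loci beside them (grey), open where not tested. The lower panel counts probes well above background on both arrays, upwards for the wild type and downwards for AT01. The 9 loci lie at -2.10 or below, and all others at -1.38 or above.

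Between the 9 loci, detection in AT01 was kept. The choice of the 9 took out the neighbouring loci that lost most, so this follows in part from that choice. Of 128 probes of the 26 loci between, 22 (17.2%) were detected on both wild-type arrays, against 24 of 45 (53.3%) in the 9 loci and 43.5% over the array. Of the 22, 21 were detected on both mutant arrays, 1 on one of them, and 0 were lost. In the 17 loci beside the stretch 8 of 8 were kept. The median ratio of unscaled AT01 to wild-type signal over the kept probes was 1.23 between and 1.103 beside the 9 loci, and 1.61 over the array. Of probes not detected on any wild-type array, 4 of 100 between (4.0%) and 2 of 70 beside (2.86%) were detected on both mutant arrays, and 0 of 17 of the 9 loci, against 18.2% over the array (3927 of 21594). The 0 of 17 rests on the contrast by which the 9 loci were picked, so nothing is read from it.

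**Figure D4:**
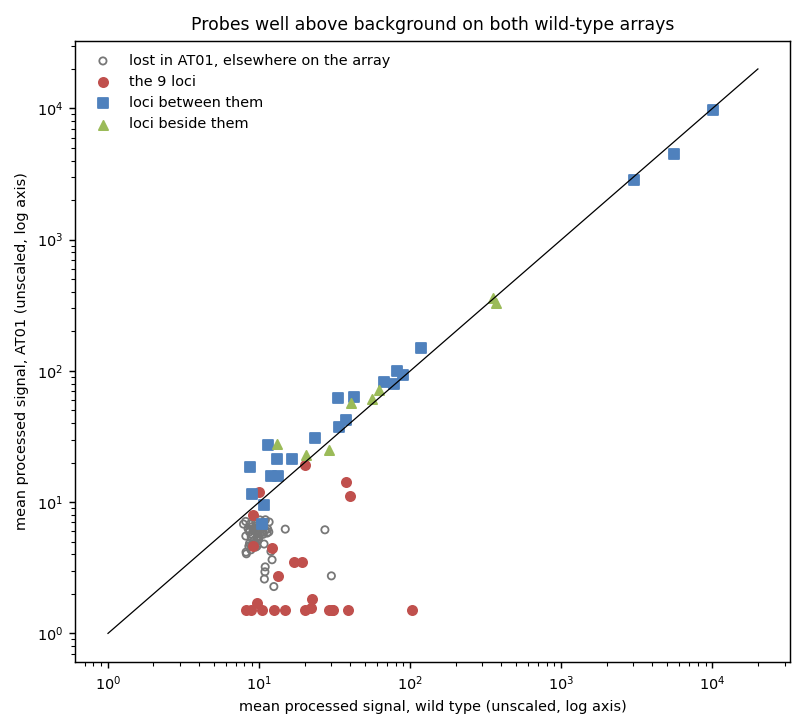
Mean processed signal in AT01 against the wild type, unscaled with both axes log, for probes detected on both arrays of the wild type: the 24 of the 9 loci (red), the 22 of the loci between (blue), the 8 of the loci beside (green) and, as open circles, the 55 lost in AT01 elsewhere on the array. The line marks equal signal. Of the red points, 11 lie within 5% of the lowest signal on both mutant arrays and others lie higher. The blue and green points lie around the line. Among the blue, probe 2 of ASTRICH105237 lies above it (11.45 in the wild type, 27.3 in AT01) and probe 1 of ASTRICH120879 below it (10.46 and 6.775).

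The PKS-NRPS hybrid gene ASTRICH58285, direct neighbour of ASTRICH120872, had 2 probes detected on all 4 arrays. They read 38.0 and 37.6 in the wild type against 46.5 and 38.8 in AT01, and 33.2 and 34.2 against 44.5 and 29.9, so that neither was lower in both mutant arrays before scaling. In the fit over all genes it was lower by -0.70 ± 0.13 on the scaled log2 scale (SE, n = 2 arrays per strain; limma, Benjamini-Hochberg adjusted p = 0.00787). That call did not survive the common lower limit (-0.27, adjusted p = 0.105 in limma), quantile normalization (-0.36) or cyclic loess (-0.28). Both of its detected probes were thus detected in AT01, while ASTRICH120872 beside it had none there.

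The beta-glucosidase gene cel3e (ASTRICH76227), at position 33 of the stretch, fell by 1.23 ± 0.19 on the scaled log2 scale (limma's Benjamini-Hochberg adjusted p = 0.00490), and its difference was -0.69 with the common lower limit (limma's adjusted p = 0.0278). Its 1 probe detected on all 4 arrays read 63.2 and 99.7 in the wild type and 111 and 89.7 in AT01, and so overlapped between the strains before scaling. The call ended with the brightest probe (-0.59) and in the authors' value table (-0.63). The arabinofuranosidase gene ASTRICH76210 was called lower at -0.48 ± 0.13 (limma's Benjamini-Hochberg adjusted p = 0.0264). Over the whole array, 24892 probes were detected on both mutant arrays and 18878 on both wild-type arrays. ASTRICH76210 too had more in AT01, with 0 probes detected on both wild-type arrays and 2 on both mutant arrays. Its difference turned to 0.32 with the brightest probe and 0.051 in the authors' value table, neither of which was called. The call was also lost under the common lower limit (-0.11), quantile normalization (-0.16), cyclic loess (-0.12) and the percentile over detected probes (-0.38). It was lost as well on leaving out the second wild-type array (-0.38), the first mutant array (-0.52) or the second mutant array (-0.44), fits in which the lone array of a strain is assumed to vary like the pair of the other.

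Of the 43 loci between and beside the 9, 28 were tested. Of these limma called 20 lower and 0 higher at the same limit of the Benjamini-Hochberg adjusted p, against 32.6% of all genes lower and 14.6% higher. The median difference of the 28 was -0.70. With the common lower limit 5 of the 28 were lower, near the share of 16.6% of all genes. With quantile normalization 3 of the 28 were lower, near the share of 11.0%. The largest of these differences was at ASTRICH120889, beside the stretch, with -1.38 ± 0.12 (limma's Benjamini-Hochberg adjusted p = 0.00154), -0.90 with the common lower limit. Its 2 detected probes read 48.9 and 75.7 against 72.5 and 70.6, and 41.1 and 70.3 against 67.9 and 53.6. Its call ended in the authors' value table (-0.68) and with the brightest probe (-0.69).

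ASTRICH120879, next to ASTRICH76215, was called lower at -1.03 ± 0.22, ASTRICH58880 at -0.96 ± 0.17 and ASTRICH72993 at -0.86 ± 0.13 (limma's Benjamini-Hochberg adjusted p = 0.0132, 0.00670 and 0.00509). All of these 3 calls ended under the common lower limit (-0.46, -0.44 and -0.14) and after quantile normalization (-0.56, -0.30 and -0.18). They ended with cyclic loess too (-0.55, -0.25 and -0.31), that of ASTRICH120879 also without mutant array 2 (-0.70), and that of ASTRICH58880 in the authors' value table (-0.36). The call of ASTRICH120879 held with the brightest probe (-1.61) and in the authors' value table (-1.32), and that of ASTRICH58880 with the brightest probe (-1.21). All 3 held with normexp correction and with the percentile over detected probes. The difference of ASTRICH72993 turned to 0.090 with the brightest probe and to 0.17 in the authors' value table, past no threshold. ASTRICH72993 had 0 probes detected on both wild-type arrays and 1 on both mutant arrays. More probes were detected in AT01 over the whole array as well (24892 against 18878). The 1 detected probe of ASTRICH58880 was among the brightest of the stretch, with 5938 and 5176 in the wild type and 4314 and 4760 in AT01. It was thus lower on both mutant arrays before scaling too. At the edges, ASTRICH105224 before the first locus and ASTRICH58639 after the last were not called with 75th percentile scaling, at -0.32 ± 0.14 and -0.40 ± 0.18 (limma's Benjamini-Hochberg adjusted p = 0.105 and 0.107). Their differences turned positive, past no threshold, after quantile normalization (0.12 and 0.15) or cyclic loess (0.14 and 0.079), under the common lower limit (0.077 and 0.13), with the brightest probe (0.16 and 0.46) and in the authors' value table (0.16 and 0.46). ASTRICH58701, dim in both strains, was not tested.

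Loss of detection at 2 or more probes was found at 12 of 9127 genes, 5 of the 9 loci and 7 genes elsewhere. Elsewhere, ASTRICH112478 lost 3 of its 5 detected probes, as many as ASTRICH3049, ASTRICH120884 and ASTRICH76220 lost. Of 3387 genes with at least 3 probes detected on both wild-type arrays, 7 (0.207%) had at most 1 detected on each mutant array. They were ASTRICH76215, ASTRICH3049, ASTRICH120884 and ASTRICH76220 of the 9 loci, and ASTRICH123084, ASTRICH69904 and ASTRICH102382 elsewhere, with scaled differences of -2.43, -1.63 and -1.42. In ASTRICH123084 the brighter of 2 lost probes read 28.4 and 26.1 against 5.31 and 6.998, above the lowest signal of the mutant arrays. Its scaled difference of -2.43 was larger in size than those of ASTRICH105242 (-2.10) and ASTRICH3055 (-2.11), and close to that of ASTRICH76220 (-2.42). By distance over the 4 scaled array values, the genes outside the stretch nearest to the median profile of the 9 (-1.29, -1.47, -4.16 and -4.19) were ASTRICH27395 at 1.01, ASTRICH55067 at 1.14, ASTRICH22912 at 1.23, ASTRICH73623 at 1.37 and ASTRICH69904 at 1.42. Their differences, -1.97, -1.71, -1.58, -1.55 and -1.63, were smaller than that of each of the 9 loci with 75th percentile scaling. That order did not hold in other settings. In the authors' value table ASTRICH27395 lay at -1.44, below ASTRICH120872 (-1.14) and ASTRICH3055 (-1.19), and under the common lower limit at -1.62, below ASTRICH105242 (-1.37) and ASTRICH120872 (-1.60). After quantile normalization it lay at -1.83, below ASTRICH105242 (-1.69), and with the brightest probe at -1.95, below ASTRICH105242 (-1.13), ASTRICH120884 (-0.98), ASTRICH76220 (-0.75) and ASTRICH3055 (-0.38).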

How the data were processed

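The authors labelled RNA with Cy3, per the labels' protocols. The submitters' processing notes name Agilent Feature Extraction, version 10.5.1.1. Its deposited intensity, per the file headers, is linear, with the background already subtracted and with flags for detection, outliers and saturation. All 4 arrays shared 1 slide and scan, per the file headers. The authors' deposited value table looks like log2 from its values and covers 28201 probes, 28 of the 45 here; its normalization is not given in the sources used here.

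Log2 processed signals were scaled by each array's 75th percentile. Control spots and 142 probes outlying on any array were left out on all arrays, none of them of the 9 loci, and no spot was saturated. Probes were averaged per gene. A gene was tested if 1 or more of its probes were detected on both arrays of a strain, with limma 3.58.1 in R 4.3.3. In 20 simulated data sets of 8005 genes, 75.6% of changes of 1 and 98.7% of changes of 2 on the log2 scale were recovered, and 4.61% of calls were false; the simulation had no lower signal limit.

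Array names were matched to locus tags of QM6a assembly v2.0 by their number (9070 of 9127, 99.4%). The files name no build, so order alone was used. Named neighbours are the 3 loci of known kind, the 5 largest called differences and the loci beside the outer 2; ASTRICH105263 was named after its value was seen. Likeness is Euclidean distance. Members and lists were chosen with earlier results of these data known. Normexp used the median spot signal. The number of arrays limits precision.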

Additional observations from a re-analysis of the deposited data

How the results depend on the processing

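All 9 loci stayed lower in AT01 without overlap in every setting run that gives them a value, with leave-one-out medians from -2.81 to -2.65. Their median was -2.67 with the percentile over detected probes and -2.33 with each gene's brightest probe, besides -2.53 (quantile normalization), -2.17 (common lower limit), -1.67 (authors' value table), -0.43 (normexp) and, chosen after seeing the data, -1.85 (unscaled signals). Probes without overlap numbered 41 of 45 with quantile normalization (26.1% of all probes) or the common lower limit (28.0%), 44 with cyclic loess (37.0%) and 28 of 28 in the authors' value table (33.2%). Genes called lower by limma's Benjamini-Hochberg adjusted p numbered 4739 with normexp, 882 with quantile normalization, 895 with cyclic loess, 1329 with the common lower limit and 1190 in the authors' value table, against 2612, and with an array left out 1011 to 2124 lower and 522 to 1074 higher. Among the 28 tested neighbours, 3 were lower with quantile normalization or cyclic loess, 5 with the common lower limit, 5 (and 1 higher) in the authors' value table, 10 with the brightest probe, 28 with normexp and 13 to 19 with an array left out, against 20. Over all 8005 genes tested, the brightest probe gave 2441 called lower. Without the filter on dim genes 30 of the 43 neighbours were called lower, against 3262 of all 9127 genes. The falls of ASTRICH76210 (0.32 and 0.051) and ASTRICH72993 (0.090 and 0.17) changed sign with the brightest probe and in the authors' value table, as ASTRICH73623 did with the brightest probe (0.15). Arrays sharing a replicate number did not deviate together (Pearson's r across genes 0.0057), and the replicate block gave 2929 lower and 1240 higher genes and 20 lower neighbours; it added a call at ASTRICH58639 (-0.40, limma's adjusted p = 0.0476), whose difference was above 0 in 5 other settings (0.079 to 0.46). No bound of the 19 lost probes is a measured loss, since a loss larger than the bound could not have been measured at any of them. At 2.02-fold to 3.12-fold bounds wild-type signals lay nearest to background. The causes of the shifts between settings were not tested.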
